A study of Mus musculus with 8 samples.

Results

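The cytosolic ribosomal protein genes encode the protein shell of the ribosome that translates nuclear mRNAs. They were compared between skin of near naked hairless mutant mice and skin of wild type mice, both aged 7 days. The genes were taken from the array by name, as every probe whose RefSeq accession belongs to a mouse gene called Rps or Rpl with a number, Rpsa, Rplp0, Rplp1 or Rplp2, without the Rps6k kinases. Of 61 such rows 58 had values on at least 3 arrays, 24 for the small subunit and 34 for the large, out of 6499 named genes with a value. Near naked is an allele of the hairless gene Hr, a nuclear receptor corepressor of the hair follicle, and neither the strain nor other loci are described in the labels.

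The series holds 8 two-colour arrays, each with the mutant RNA (labelled sample) and the wild type RNA (labelled control) on the same slide. Cy5 marked the mutant RNA on arrays 2, 4, 6 and 7, and Cy3 marked it on arrays 1, 3, 5 and 8. The RNA came from 5 biological replicates within 1 litter, and which animal was on which array is not labelled. Some arrays therefore share an animal and p-values over arrays are too small. Values are log2 ratios of mutant over wild type. No source states this direction. It is likely because channel 1 held the mutant RNA and the design names the mutant first, and with the opposite sign each direction below would turn. The base of 2 is assumed, and no spot intensity stands behind a ratio here. In whole skin, fewer cells of a type and less RNA per cell cannot be told apart.

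A ribosome is built from a small subunit, which reads the mRNA, and a large subunit, which joins the amino acids. The proteins are needed in fixed proportions, most in a single copy and the stalk proteins P1 and P2 in more, and their mRNAs start with a tract of pyrimidines (the TOP element) through which the growth kinase mTOR controls their translation. In mouse skin the family has a known link to pigment, since mutations in Rps19 and Rps20 darken the skin through p53 and Kit ligand made by keratinocytes.

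Start sites of members at the ends of the range of ratios are shown because features that many members share lie there. Promoters in RefSeq on the build GRCm38.p6, from 250 bases before to 50 after each start, were at hand for 43 of the 58 members. The letters CGGAAG, the core bound by ETS factors such as GABP, stood on either strand in 27 of the 43, or 62.8%, against 18.8% of 27025 genes of the table. A run of at least 8 letters C or T on the gene's strand, within 10 bases of the start, was found in 18 of 43, or 41.9%, against 15.8% of all genes. The same run in A and G was found in 2 members, or 4.65%, against 17.4%. The reverse form CTTCCG opens with letters C and T, so the searches can overlap. The GC box letters GGGCGG were present in 62.8% against 38.2%, AAGATGG, the core of YY1 sites, in 13.95% against 7.28%, and TATAAA in 13.95% against 15.7%, each on either strand. In the next 3 sequences, 40 bases before to 20 after the start, capitals mark CGGAAG or its reverse.
Rps7 (chr12:28635934-28635993, minus strand): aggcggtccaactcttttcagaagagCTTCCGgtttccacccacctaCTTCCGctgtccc
Rpl37 (chr15:5116573-5116632, plus strand): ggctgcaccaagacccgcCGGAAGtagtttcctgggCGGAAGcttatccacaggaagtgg
Rpl36a (chrX:134585614-134585673, plus strand): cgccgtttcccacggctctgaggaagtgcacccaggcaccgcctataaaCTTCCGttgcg

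In 2 further members capitals mark the run of C and T, 18 bases long in Rpl35 and 14 in Rpl13a.
Rpl35 (chr2:39005112-39005171, minus strand): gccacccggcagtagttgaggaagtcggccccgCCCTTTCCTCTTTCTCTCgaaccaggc
Rpl13a (chr7:45128726-45128785, minus strand): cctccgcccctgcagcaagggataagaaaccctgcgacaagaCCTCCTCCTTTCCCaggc

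Rpsa, the member that passed the test, had its CGGAAG outside the printed window and no such run, and is given without capitals.
Rpsa (chr9:120127726-120127785, plus strand): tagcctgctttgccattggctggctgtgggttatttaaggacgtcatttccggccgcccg

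Across the family the ratios leaned above 0 in the mutant without any single gene rising past the test, and 1 gene, Rpsa, fell. Of 46 members with values on at least 3 arrays of each dye orientation, 39 had a fitted ratio above 0, or 84.8%, against 55.3% of all 3779 genes tested. Their median was 0.32, against 0.05 over all genes, and with array weights it was 0.21, against 0.06. The count of members past the threshold (limma, Benjamini-Hochberg adjusted p below 0.05 over all genes) was 1 of 46, where 3.47% of all genes passed, 0.662% higher and 2.80% lower. At an unadjusted p below 0.05, 4 members were higher and 2 were lower, with 10.2% and 9.31% of all genes on those sides. The count of 4 was 10 without array 1, 2 without array 4, and 14 on arrays 4 to 8 alone. The share of all genes was not computed in those fits, so these counts have no background beside them. The last set includes arrays 4, 5 and 8, on which the members were high. A filter that asked for 4 arrays brought in the other 12 members, 10 of them above 0 and none past the threshold (lowest adjusted p = 0.344), so that 49 of 58 were above 0 in either fit. 

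**Figure D1:**
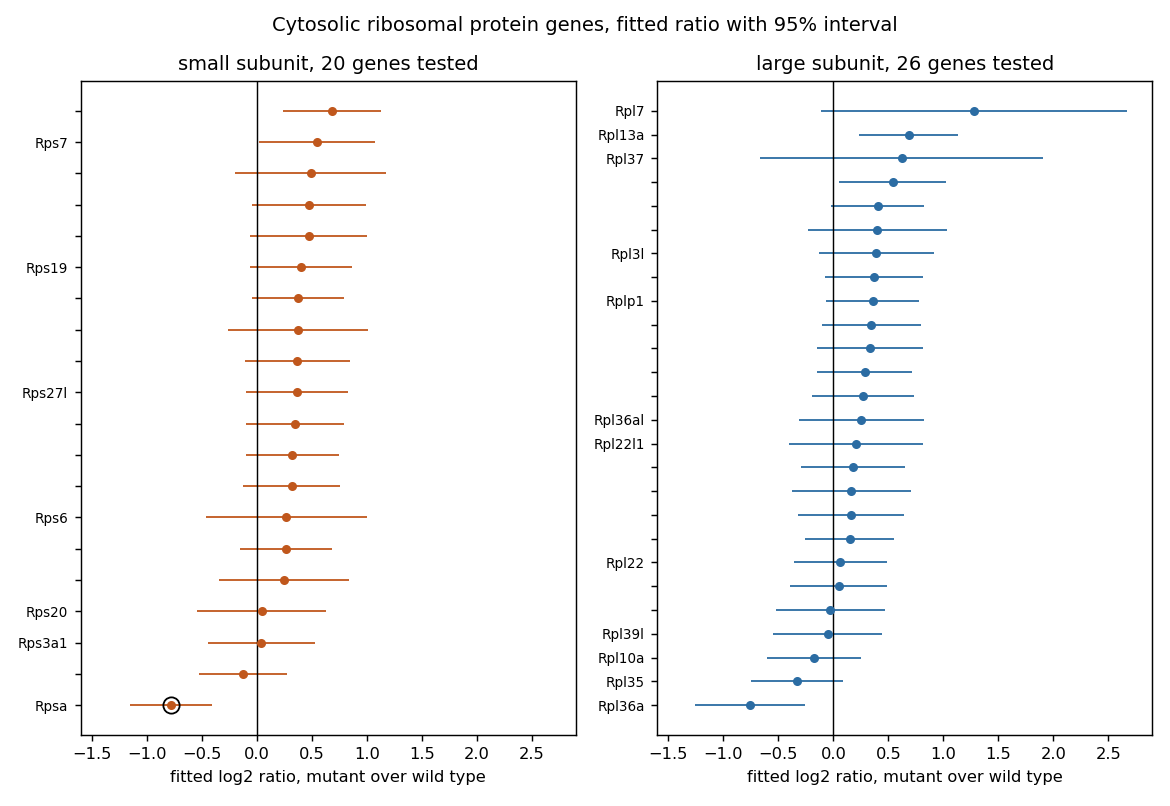
Fitted log2 ratio of mutant over wild type (x axis) for the 20 small subunit and 26 large subunit genes tested, with 95% intervals from limma and names for the genes described in the text. The circle marks Rpsa at -0.78, the single member past the threshold, and 39 of the 46 points lie right of 0.

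In the small subunit Rpsa stood apart. It encodes a protein of the solvent side of the small subunit that is also known as the laminin receptor. With the mutant in Cy5 its ratios were -0.68, -0.18, -0.61 and -1.10 on arrays 2, 4, 6 and 7. With the mutant in Cy3 they were -1.08, -0.72, -1.14 and -0.71 on arrays 1, 3, 5 and 8. All 8 values were below 0 and the orientations overlapped. The fitted ratio was -0.78 ± 0.17 (SE, 8 arrays, limma adjusted p = 0.0283), with a 95% interval from -1.15 to -0.40. Rpsa was the only tested member below 0 on every array that measured it, or 2.17% of members, against 4.13% of all genes. The call was lost without array 1, 2, 5, 6 or 7, with adjusted p from 0.0537 to 0.118 and ratios from -0.78 to -0.70, and it was kept without array 3, 4 or 8.

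No other small subunit gene passed the test. Rps7, a member that binds MDM2 and so links the ribosome to p53, had 0.24, 0.44 and -0.22 on arrays 2, 4 and 7, and 0.31, 1.34, 1.84 and 0.29 on arrays 1, 3, 5 and 8. The 6 positive values were spread widely, with arrays 3 and 5 high, and the fitted ratio of 0.55 ± 0.24 did not pass (adjusted p = 0.234).

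The members that darken mouse skin when mutated gave no call. Rps19, a protein of the head of the small subunit, had a lowest value of -0.40, a median of 0.37 and a highest of 1.10 over 8 arrays, with 5 arrays above 0. Its fitted ratio was 0.40 ± 0.21 (adjusted p = 0.332), with 0.26 without array 4. Rps20, its neighbour in the head, ran from -2.01 to 1.45 with 4 arrays on each side of 0, and was fitted at 0.04 ± 0.27 (adjusted p = 0.948). Rps6, the substrate of the S6 kinases, had a median of 0.26 over 7 arrays between -1.71 and 1.51 (adjusted p = 0.691). Its fitted ratio of 0.27 ran from 0.019 without array 8 to 0.56 without array 2. Over the list of p53 and ribosome stress genes, 6 of 14 were tested, none passed and 2 were above 0, with a median of -0.06. Kitl, the Kit ligand gene, stood at 0.22 and Cdkn1a, a p53 target that stops the cell cycle, at -0.20.

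In the large subunit Rpl13a and Rpl36a lay on opposite sides of 0, short of the threshold. Rpl13a, which also silences translation of inflammatory mRNAs in the GAIT complex of human cells, had 1.13, 0.63 and 0.72 on arrays 2, 4 and 6, and 0.47, 0.47 and 0.67 on arrays 1, 3 and 8. All 6 values were above 0, the one tested member of which this was true, or 2.17% against 2.86% of all genes. Its fitted ratio was 0.68 ± 0.20 (limma adjusted p = 0.0962). Rpl36a, a protein near the exit site of the large subunit, had -1.88, -0.49, -0.89 and -1.32 with the mutant in Cy5, and -1.12, 0.09, -0.92 and 0.43 with it in Cy3. It was below 0 on 6 of 8 arrays, with arrays 3 and 8 above, and its fitted ratio was -0.76 ± 0.23 (adjusted p = 0.0915).

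The highest fitted ratio of all members rested on 1 array. Rpl7, a protein at the surface of the large subunit, had -0.76, 1.26, -0.07 and -0.21 with the mutant in Cy5, and -0.13, 2.01, 0.71 and 7.39 with it in Cy3, the last on array 8. Its ratio of 1.27 ± 0.64 (adjusted p = 0.297) was 0.46 without array 8. Rpl37 was carried in the same way by 3.66 on array 1, beside values from -1.93 to 1.32 elsewhere, and its ratio of 0.62 was -0.20 without that array. At the lower end Rpl35, which sits at the exit of the peptide tunnel, stood at -0.33 ± 0.19 and Rpl10a at -0.18 ± 0.20, each below 0 on 5 of 7 arrays (adjusted p = 0.372 and 0.654). Without array 2, where its value was -1.03, Rpl10a stood at -0.073.

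The stalk proteins, which recruit elongation factors to the large subunit, were each above 0 on most arrays without a call. Rplp1 had values from -0.18 to 1.18 over 8 arrays, with a median of 0.30, and a fitted ratio of 0.36 ± 0.19 (adjusted p = 0.339). Rplp2 had 0.18, 0.96, 0.24 and 0.25 with the mutant in Cy5, and 0.92 and 0.21 with it in Cy3. These 6 values all lay above 0, and under the filter of 4 arrays the ratio was 0.49 ± 0.23 (adjusted p = 0.344). Rplp0, the base of the stalk, had 5 values, of which 0.87 on array 5 was far above the other 4, between -0.17 and 0.07.

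Paralogs with their own probes gave no call. The largest mean difference from a close relative was between Rpl36al and Rpl36a, which encode nearly the same protein. Rpl36al had 1.21, 1.51, 0.14 and 0.60 with the mutant in Cy5, and -0.89, -1.48, 0.18 and 0.77 with it in Cy3. Its ratio exceeded that of Rpl36a on 7 of 8 arrays. The difference had a mean of 1.02 ± 1.41 (SD, n = 8), smaller than its spread, and was not tested. It was 3.09, 2.00, 1.03 and 1.92 with the mutant in Cy5 (arrays 2, 4, 6 and 7). With the mutant in Cy3 it was 0.23, -1.58, 1.10 and 0.34 (arrays 1, 3, 5 and 8), so the mean joins unlike orientations. The fitted ratio of Rpl36al itself was 0.25 ± 0.26 (adjusted p = 0.620). That ratio moved to 0.067 when array 8 was left out, 0.15 for array 4, 0.17 for array 5 and 0.44 for array 3. Rpl22l1, which can replace Rpl22 in the ribosome, was above Rpl22 on the 4 arrays with the mutant in Cy3, by 0.59 to 4.07. It was below Rpl22 on the 4 arrays with the mutant in Cy5, with differences from -2.64 to -0.62. Rpl3l, the form of Rpl3 known from striated muscle, exceeded Rpl3 on 2 of 6 arrays, and Rpl39l, known from testis, exceeded Rpl39 on 2 of 5. Rps27l, a target of p53, had values from -0.51 to 1.30 with 4 arrays on each side of 0. The fitted ratios of Rpl22l1, Rpl3l, Rpl39l and Rps27l were 0.21, 0.39, -0.05 and 0.36, and none passed. That of Rpl3l was 0.16 without array 3, where its value was 2.51.

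**Figure D2:**
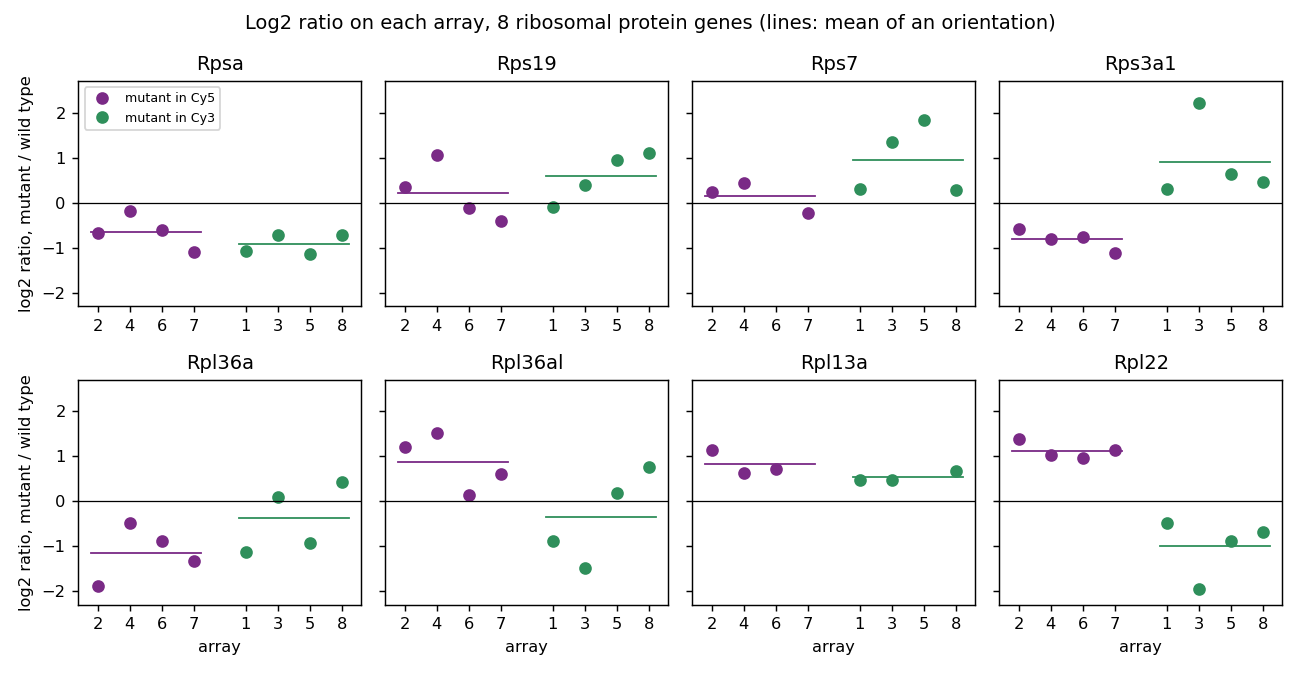
Log2 ratio of mutant over wild type on each array for 8 members, arrays with the mutant in Cy5 to the left and in Cy3 to the right, with the mean of each orientation as a line. Rpsa was below 0 on 8 of 8 arrays, and the values of Rpl22 and of Rps3a1 in the 2 orientations lay on opposite sides of 0.

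Small and large subunit were set against each other over the same arrays. Of 20 small subunit genes tested 18 were above 0, with a median of 0.35, and of 26 large subunit genes 21 were above 0, with a median of 0.26. Neither subunit had a gene past the threshold on the higher side. On single arrays the small subunit median minus the large subunit median was 0.04, 0.21, -0.05 and -0.01 with the mutant in Cy5 (arrays 2, 4, 6 and 7). It was 0.05, 0.29, 0.05 and 0.15 with the mutant in Cy3 (arrays 1, 3, 5 and 8). The difference had a mean of 0.09 ± 0.12 (SD, n = 8), smaller than its spread between arrays, and no test was made of it.

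From array to array the whole family moved more than its subunits did against each other. The median of the members was 0.03, 0.63, -0.17 and 0.07 on arrays 2, 4, 6 and 7 with the mutant in Cy5, and -0.13, 0.09, 0.56 and 0.43 on arrays 1, 3, 5 and 8 with it in Cy3. Over the 8 arrays the mean of these medians was 0.19 ± 0.31 (SD), while the median of all named genes lay between -0.09 and 0.09 on every array. Arrays 4, 5 and 8 were high, with 76.4%, 81.5% and 81.5% of members above 0. On arrays 1 and 6 32.6% and 38.6% were above 0, where 52.2% and 48.8% of all named genes were. On arrays 2, 3 and 7 between 51.9% and 55.4% of members were above 0. The high arrays included both dye orientations, and the median fitted ratio ran from 0.23 to 0.40 when any 1 array was left out.

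**Figure D3:**
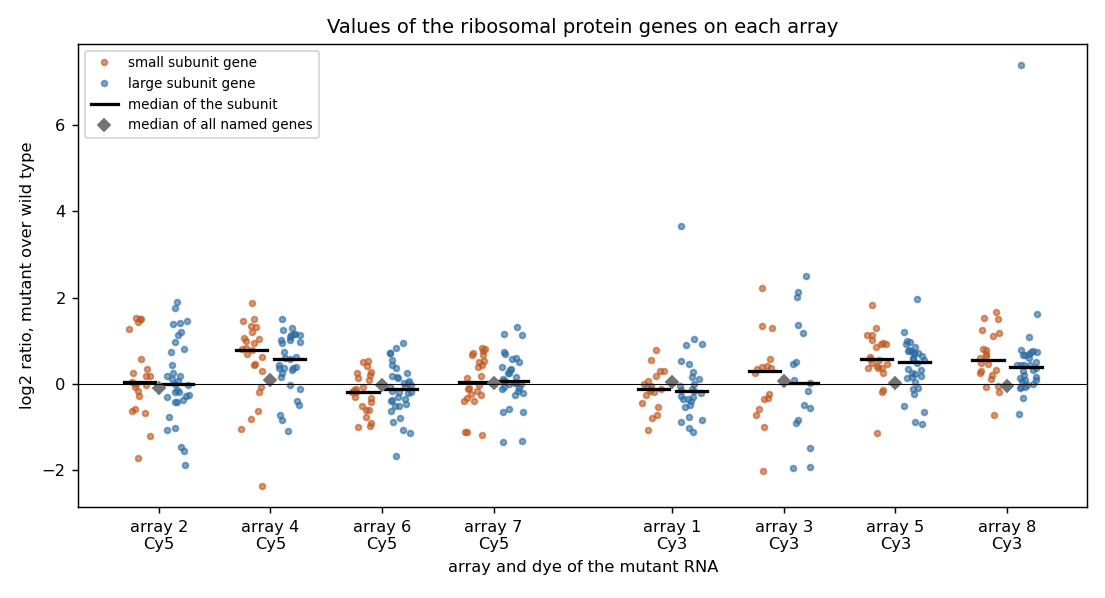
Log2 ratios of the 58 members on each array, small subunit genes to the left and large subunit genes to the right within an array, with the median of each subunit as a bar and that of all named genes as a diamond. Both bars lie above the diamond on arrays 2, 4, 5, 7 and 8, by little on array 7, and below it on arrays 1 and 6. On array 3 the small subunit bar lies above the diamond and the large subunit bar below it.

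Some members followed the dye orientation, in either direction. Rpl22, a large subunit protein that also binds RNA outside the ribosome, had 1.38, 1.02, 0.96 and 1.14 with the mutant in Cy5, and -0.49, -1.94, -0.89 and -0.69 with it in Cy3. The orientations did not overlap and lay on opposite sides of 0. The difference between them was 2.13 ± 0.39 (limma adjusted p = 0.0286), while the fitted ratio was 0.06 ± 0.19. Rpl22 was the 1 member of 46 past the threshold for the dye difference. Of all genes 1.75% passed, 1.64% higher with the mutant in Cy5 and 0.106% lower. The call was lost without any 1 of arrays 1 to 7. Without array 8, 9 of 46 members passed, beside 761 of all 3779 genes.

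Rps3a1, a small subunit protein, ran the other way. Its values were -0.58, -0.80, -0.77 and -1.12 with the mutant in Cy5, and 0.30, 2.22, 0.62 and 0.47 with it in Cy3. Its difference of -1.72 ± 0.45 did not pass (adjusted p = 0.0594). All values with the mutant in Cy5 lay above all those with it in Cy3 in 5 of 46 members, Rpl22, Rpl26, Rpl27, Rpl28 and Rps12, or 10.9% against 14.8% of all genes. The reverse held in 4 members, Rpl3l, Rpl7a, Rps14 and Rps3a1, or 8.70% against 11.6%. Both shares were below those of all genes, and no test was made of that.

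Read over the members, pairs of arrays with the same orientation correlated above 0 in 11 of 12 cases (median r = 0.33), and pairs of opposite orientation in 6 of 16 (median r = -0.16). These correlations are across genes, which are not independent replicates. Between the 232 replicate spots of Gapdh, a gene of glycolysis, all 16 pairs of opposite orientation were below 0 (median r = -0.45). Replicate spots of 1 gene share its genotype ratio, so differences among them carry no genotype. Since these turned sign with the dyes, the table was read as already turned to the same direction on every array. The spots cannot tell mutant over wild type from the reverse, which would give the same correlations. With the columns read as Cy5 over Cy3 instead, 19 of 46 members were above 0, Rpsa stood at 0.14 with no call, and Rpl22 passed at 1.06.

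**Figure D4:**
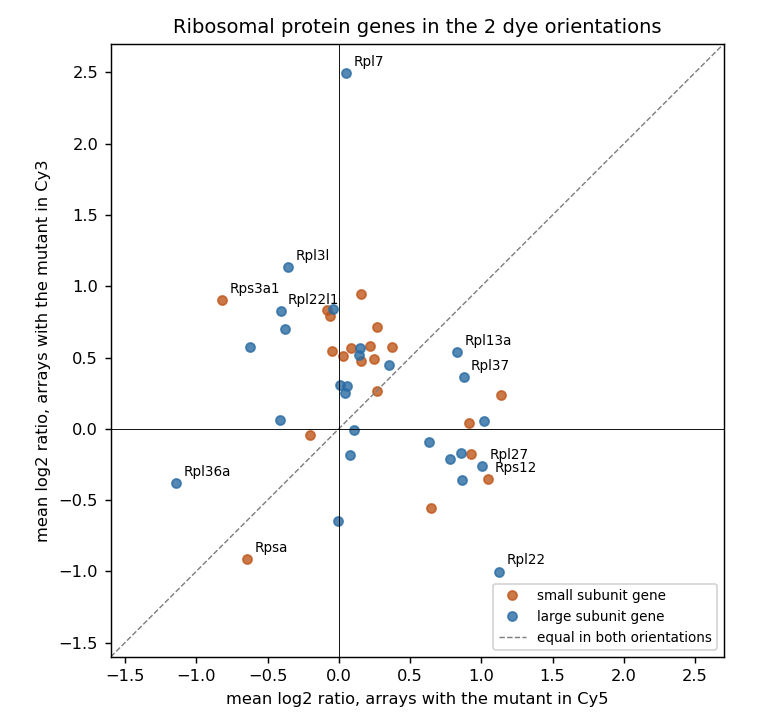
Mean log2 ratio of each of the 46 tested members over the arrays with the mutant in Cy5 (x axis) and in Cy3 (y axis), with the line of equal values. Rpsa lies near the line at -0.64 and -0.91, and Rpl22 far from it, at 1.13 with the mutant in Cy5 and below 0 with it in Cy3.

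Members had values more often than other genes on the arrays with the fewest values. Of the 61 rows 90.2% had a value on array 2, where 57.1% of named genes had one. The shares were 75.4% against 64.4% on array 1, 88.5% against 77.2% on array 8 and 54.1% against 44.4% on array 3. On arrays 4 to 7 members and named genes both had values in 88.5% to 94.5% of cases. Rpl15 and Rpl19, both of the large subunit, had no value on any array and Rps16 had a single one, -2.13 on array 2. Rps2, at the entry of the mRNA channel, had the fewest values among the members kept, -2.37, -0.98 and 0.52 on arrays 4, 6 and 7 and -0.13 on array 5. A further 26 of 87 protein-coding genes of the rule, among them Rpl24, Rpl38 and Rpl27a, were not matched to a row and were not analysed here. Ribosomal protein genes have many near-identical copies in the mouse genome. Which of them a probe would also bind was not tested, since probe sequences were not used here.

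The proteins of the mitochondrial ribosome, encoded by other genes, lay on the other side of 0. Of 20 Mrps and Mrpl genes tested 6 were above 0, with a median of -0.19, and none passed. Mrpl2 at 0.72 (adjusted p = 0.0579) was the highest and Mrpl40 at -1.05 (adjusted p = 0.0534) the lowest. Their median was -0.54, -0.44, -0.38 and -0.26 on arrays 2, 4, 6 and 7, and -0.12, 0.19, 0.07 and -0.34 on arrays 1, 3, 5 and 8. The cytosolic median was the higher on 6 of 8 arrays, with nearly equal values on array 1, and the difference was not tested.

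**Figure D5:**
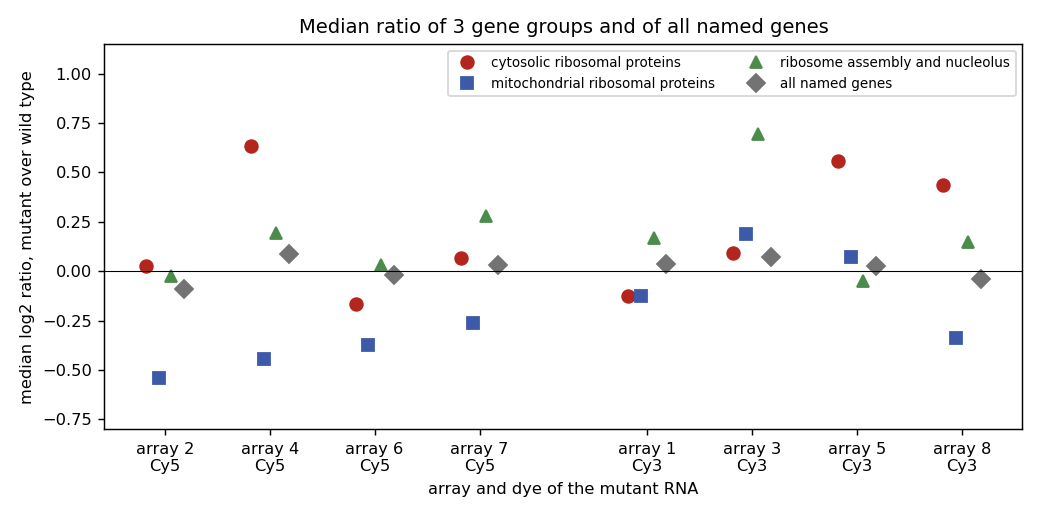
Median log2 ratio on each array of the cytosolic and of the mitochondrial ribosomal protein genes, of the genes of ribosome assembly and of all named genes. The cytosolic median reached 0.63, 0.56 and 0.43 on arrays 4, 5 and 8, where the mitochondrial one was -0.44, 0.07 and -0.34. It was also the higher on arrays 2, 6 and 7. On array 1 these medians were nearly equal, and on array 3 the mitochondrial one was higher, at 0.19 against 0.09.

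Genes that build the ribosome were read beside its proteins. Of 86 genes of assembly and the nucleolus 25 were tested, 16 were above 0 with a median of 0.18, and 2 were higher past the threshold. These were Surf6, a nucleolar protein, at 1.04 ± 0.24 (limma adjusted p = 0.0431) and Pa2g4, a growth regulator that binds the ribosome, at 1.01 ± 0.24 (adjusted p = 0.0431), each above 0 on 7 of 7 arrays. Ncl, which encodes nucleolin, was the lowest at -0.66, with -5.51 on array 2. Of 18 genes of RNA polymerase I, which makes ribosomal RNA, 6 were tested and none passed, with Ttf1 at 1.02 and Polr1d at -0.87. Fau and Rack1, ribosomal proteins under other names, stood at 0.40 and 0.20, and neither passed.

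Among other genes with a TOP element 4 of 17 were tested and Vim, which encodes vimentin and is a fibroblast marker too, was higher at 1.17 ± 0.19 (adjusted p = 0.00889), while Npm1 was lowest at -0.09. The median of the 4 was 0.28. Of 27 genes of mTOR signalling and the S6 kinases 9 were tested and none passed. Mlst8, an mTOR subunit, was highest at 0.56 and Akt1, an upstream kinase, lowest at -0.52, with a list median of 0.11.

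Markers of the cell types of skin were read in the same fits, since a log ratio carries no level with which to check the tissue itself. Dermal fibroblast markers were above 0 in 5 of 6 tested (median 0.84), with Vim and Fbn1 past the threshold, and suprabasal keratinocyte markers in 3 of 4 (median 0.36), with Krt1 past it. The 3 markers of cycling cells were above 0 (median 0.61) and none passed. Hair shaft markers were above 0 in 1 of 3 (median -0.58), with Krt31 lower past the threshold, and adipocyte markers in 3 of 5 (median 0.33), with Cfd higher past it. Immune cell markers were above 0 in 3 of 5 (median 0.41) with C1qb lower past the threshold. Farthest on the other side of 0 from these calls were Lum (fibroblasts) at -0.21, Ivl (suprabasal) at -1.06 and Krt35 (hair shaft) at 0.63. In the same way Car3 (adipocytes) stood at -0.86 and Tyrobp (immune cells) at 0.71, and none of these passed the threshold. Mast cell and melanocyte markers had medians of 0.05 and -0.20, with none past it. Col17a1, the 1 basal keratinocyte marker tested, stood at 0.06, and Tnnt3 of skeletal muscle at -1.23. On arrays 4, 5 and 8, where the ribosomal protein genes were high, the fibroblast markers had medians of 0.41, 0.54 and 1.40. On arrays 6 and 1, where those genes were low, they had 0.71 and 0.41. Suprabasal and adipocyte markers also had their highest medians on array 8, at 1.24 and 1.46, as did cycling markers. The part of these cell types in the ratios of the ribosomal protein genes was not tested.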

How the data were processed

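The authors deposited a table of log ratios of the 2 channels of each array, used here as log2 values. For base, direction, normalization and missing spots, the authors' choices are not stated in the labels. Dyes were coupled by standard TIGR protocols, per the labels. Of 23232 rows, 1235 control spots were left out. By accession without version, 6749 rows matched a gene of GRCm38.p6, 77 matched by synonym and 15171 had no name. Probes of a gene were averaged.

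Genes with values on at least 3 of 4 arrays of each orientation, 3779 in all, entered limma (version 3.58.1, R 4.3.3). The model had an intercept, the ratio, and dye orientation as covariate. Moderated tests were adjusted by Benjamini-Hochberg over all genes, with a threshold of 0.05. The fit was also run on simulated data with independent arrays, which cannot show how shared animals change the p-values. An array had values for 42.8% to 92.6% of probes, with an SD from 0.57 (array 5) to 1.60 (array 2). The number of arrays limits the precision.

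The members, the lists and the alternatives were chosen with earlier results of these data known, so lists carry no test. Members were named in the text if past the threshold in the ratio or in the dye difference, among the 5 highest or 5 lowest ratios or the 3 largest dye differences, stalk proteins, paralogs, Rps6, Rpl13a, or known for mouse phenotypes. Of the other lists, genes past the threshold were named, and for pathways and mitochondrial genes also the ends of the range. Members split by orientation, single-array values and Gapdh were added after their values were seen. Some members that meet the naming rule are not reported here.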

Additional observations from a re-analysis of the deposited data

Results flagged for a closer look

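In 3 of 25 sets of values over arrays 1 array stood apart (Dixon's test at the 95% level), where chance gives about 1 in 20. That rate does not hold here, since many sets are members named for their high or low ratios or dye differences in these data. Rpl7 stood at 7.39 on array 8. Rplp0 stood at 0.87 on array 5, among 5 values. Rpl39l stood at 0.74 on array 4, above 5 values below 0.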

How the results depend on the processing

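The lean of the members above 0 kept its direction in all alternatives but 1, with 35 to 40 of 46 members above 0 (19 of 23 where values on all 8 arrays were asked for). The member median minus that of all genes was 0.27, against 0.15 with array weights, 0.17 with values on all 8 arrays and 0.17 to 0.35 without an array. The 1 exception in direction read the columns as Cy5 over Cy3: the median was -0.11, small minus large -0.066 and 66 genes passed. That reading turned the sign of Rpsa (0.14), Rpl7 (-1.22), Rps7 (-0.40), Rpl35 (0.32), Rps3a1 (-0.86), Rplp1 (-0.21), Rps19 (-0.18), Rps6 (-0.24), Rpl22l1 (-0.62), Rpl39l (0.13), Rpl3l (-0.75) and Rps27l (-0.43). Genes past the threshold numbered 64 with no dye term, 220 with median absolute values equalised, 360 with quantile normalization, 81 with values on all 8 arrays, 491 with array weights, 379 with robust regression, 491 of all probes and 12 on arrays 4 to 8 alone, and 53 to 130 when an array was left out. Higher and lower calls were 25 and 106, against 58 and 162 with equalised values, 135 and 225 with quantile normalization, 184 and 307 with array weights and 153 and 226 with robust regression. Members past it numbered 0 with no dye term and on arrays 4 to 8 alone (Rpsa adjusted p = 0.0554 and 0.175 in limma), 3 with quantile normalization (with Rpl36a among them), 4 with array weights (with Rpl36a and Rpl13a among them), 2 with robust regression (with Rpl13a), and 0 to 1 without an array. Members past it in the dye difference numbered 4 with equalised values (415 of all 3779 genes) and 5 with quantile normalization (616 genes). They numbered 0 with values on at least 4 arrays (0 of 6084 genes) and 4 of 23 with values on all 8 (345 of 1613 genes). With array weights they numbered 11 (997 of 3779 genes), with robust regression 7 (765 genes) and with every probe 2 (638 of 11924 probes). On arrays 4 to 8 they numbered 0 (2 genes), and without an array 0 to 9 (0 to 761 genes). Small minus large was 0.26 on arrays 4 to 8 alone and 0.05 to 0.13 without an array. The sign turned for Rps3a1 with equalised values (-0.046), array weights (-0.10), robust regression (-0.12) and arrays 4 to 8 (-0.18), for Rps20 with quantile normalization (-7.9e-05) and array weights (-0.10), for Rpl22l1 with array weights (-0.16), and for Rpl39l (0.086) on arrays 4 to 8. Leaving out an array turned the sign within these ranges: Rpl22 -0.024 to 0.22, Rpl37 -0.20 to 1.19, Rps20 -0.13 to 0.29, Rpl39l -0.22 to 0.043, Rps3a1 -0.18 to 0.14 and Rpl22l1 -0.0075 to 0.42. The causes were not tested. No paired analysis was possible because the 8 arrays form a single group of ratios and carry no animal number. Signal over background was not analysed here.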

Other observations

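The members varied together from array to array. Among 23 members with values on all 8 arrays the median pairwise correlation over arrays was 0.22, and 64.8% of pairs were above 0, against 0.07 and 53.1% among 1613 named genes. After the mean of each dye orientation was taken off, the medians were 0.32 for members and 0.09 for all. These are descriptions over 8 arrays that may share animals.

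Promoter letters went with no clear shift within the family. The median fitted ratio was 0.27 in 20 tested members with CGGAAG and 0.36 in 14 without it, and 0.27 in 13 with the run of C and T and 0.28 in 21 without it.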
